A study of Mus musculus with 7 samples.

Results

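Trap1a, the homeobox genes Rhox5, Rhox6 and Rhox9, and the germ cell genes Dazl, Ddx4, Sycp3 and Mael are 8 mouse genes with a normal home in the germline, the placenta or the early embryo. All probe sets annotated to them were taken, 9 of the 45101 on the array and 8 of the 18193 genes that could be read. Dazl had 2 probe sets and the other 7 genes had 1 each. The set was proposed with the levels of these genes in the same 7 arrays known, so that their levels and differences are given as a description and none of the 8 was tested.

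RNA was hybridized to 7 Affymetrix mouse whole-genome arrays. The induced hepatic stem cells (iHepSC) were made from mouse embryonic fibroblasts by lentiviral Oct4 and Hnf4α, picked as colonies and expanded as clones in hepatocyte medium with HGF, EGF, dexamethasone and nicotinamide. They were measured once at passage 3 (P3) and once at passage 20 (P20). Primary hepatocytes (pHep, 1 array) came from 6-week-old male C57BL/6J mice by collagenase perfusion. Untreated fibroblasts (MEF, 4 arrays) came from C57BL/6J embryos, whose sex the paper does not give, and were kept in fibroblast medium. The study took the single clone iHepSC-C3 forward for its detailed work, the array labels name no clone, and both iHepSC arrays may be that 1 line. Nothing says that the arrays of a group came from separate cultures, and the p-values below then measure only the spread between these arrays.

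In somatic cells many germline genes are shut by methylation of CG dinucleotides at the promoter, set down around implantation, and some are also held by complexes that read the CACGTG box or the E2F site and modify histones. Trap1a encodes the tumour antigen P1A, which mouse tumours can display although normal tissues other than testis and placenta hardly make it. Rhox5, also called Pem, is the founding gene of the X-linked Rhox homeobox cluster and is read in placenta, Sertoli cells and epididymis, while Rhox6 and Rhox9 lie beside it and are read in germ cells and placenta. Dazl is an RNA-binding protein and Ddx4 (Vasa) an RNA helicase of germ cells, Sycp3 builds the axis of meiotic chromosomes, and Mael works in the piRNA pathway that silences transposons.

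The promoters of Trap1a and Rhox5, whose levels were far higher in iHepSC, are shown first, followed by those of Ddx4, whose level was far lower in iHepSC, and of Mael, which stayed low on every array. Each window runs from 250 bases before the start of the gene to 50 bases after it, on the strand of the gene, and comes from RefSeq on build GRCm38.p6. CG dinucleotides are in capitals. The Trap1a window is chrX:139333433-139333732 (plus strand), Rhox5 chrX:37754358-37754657 (plus strand), Ddx4 chr13:112652261-112652560 (minus strand) and Mael chr1:166238695-166238994 (minus strand).
Trap1a: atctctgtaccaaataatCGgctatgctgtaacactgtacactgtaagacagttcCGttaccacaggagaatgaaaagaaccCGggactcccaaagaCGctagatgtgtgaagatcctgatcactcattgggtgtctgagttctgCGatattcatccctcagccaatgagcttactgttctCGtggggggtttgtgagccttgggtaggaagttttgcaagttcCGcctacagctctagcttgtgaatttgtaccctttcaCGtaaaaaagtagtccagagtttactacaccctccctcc
Rhox5: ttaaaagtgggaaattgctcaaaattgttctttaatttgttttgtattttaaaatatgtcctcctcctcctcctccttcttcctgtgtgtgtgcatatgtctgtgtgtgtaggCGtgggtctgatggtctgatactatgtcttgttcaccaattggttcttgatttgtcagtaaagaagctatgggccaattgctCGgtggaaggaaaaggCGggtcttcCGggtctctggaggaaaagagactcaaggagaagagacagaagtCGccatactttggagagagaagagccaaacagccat
Ddx4: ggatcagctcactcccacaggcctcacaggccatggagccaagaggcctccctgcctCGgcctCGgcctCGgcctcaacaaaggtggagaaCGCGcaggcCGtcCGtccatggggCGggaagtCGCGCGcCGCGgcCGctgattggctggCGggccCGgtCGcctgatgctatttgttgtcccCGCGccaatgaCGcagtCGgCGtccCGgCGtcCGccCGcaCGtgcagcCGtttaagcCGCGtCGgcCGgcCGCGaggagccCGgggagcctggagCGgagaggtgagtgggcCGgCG
Mael: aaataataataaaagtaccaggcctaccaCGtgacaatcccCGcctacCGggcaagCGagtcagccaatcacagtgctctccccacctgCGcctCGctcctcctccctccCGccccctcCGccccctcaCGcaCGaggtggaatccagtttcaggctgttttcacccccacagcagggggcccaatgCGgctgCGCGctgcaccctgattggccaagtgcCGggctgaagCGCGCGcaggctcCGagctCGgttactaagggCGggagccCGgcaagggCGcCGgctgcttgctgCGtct

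The 2 X-linked windows held 8 CG dinucleotides in Trap1a and 5 in Rhox5, close to the median of 7 over all 32851 windows of the table, with 51.4% of windows holding fewer than Trap1a and 38.0% fewer than Rhox5. The 4 autosomal windows were richer, with 15 in Sycp3, 24 in Mael, 28 in Dazl and 38 in Ddx4. For Ddx4, 95.0% of all windows had fewer. Rhox6 and Rhox9 had no window in the table used here. The letters CACGTG, the box bound by Max and its partners, stood once in Ddx4, 2 times in Sycp3 and once in Mael, and in 7.15% of all windows. The letters GCGGGA, the core of an E2F site, searched on both strands, stood once in Ddx4, once in Sycp3 and 2 times in Mael, and in 20.0% of all windows. Matches to the 2 motifs did not overlap. Neither motif was found in the Trap1a, Rhox5 or Dazl window, and both were found together in 1.99% of all windows. A match describes the letters only, and no binding or methylation was measured on these arrays.

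**Figure D1:**
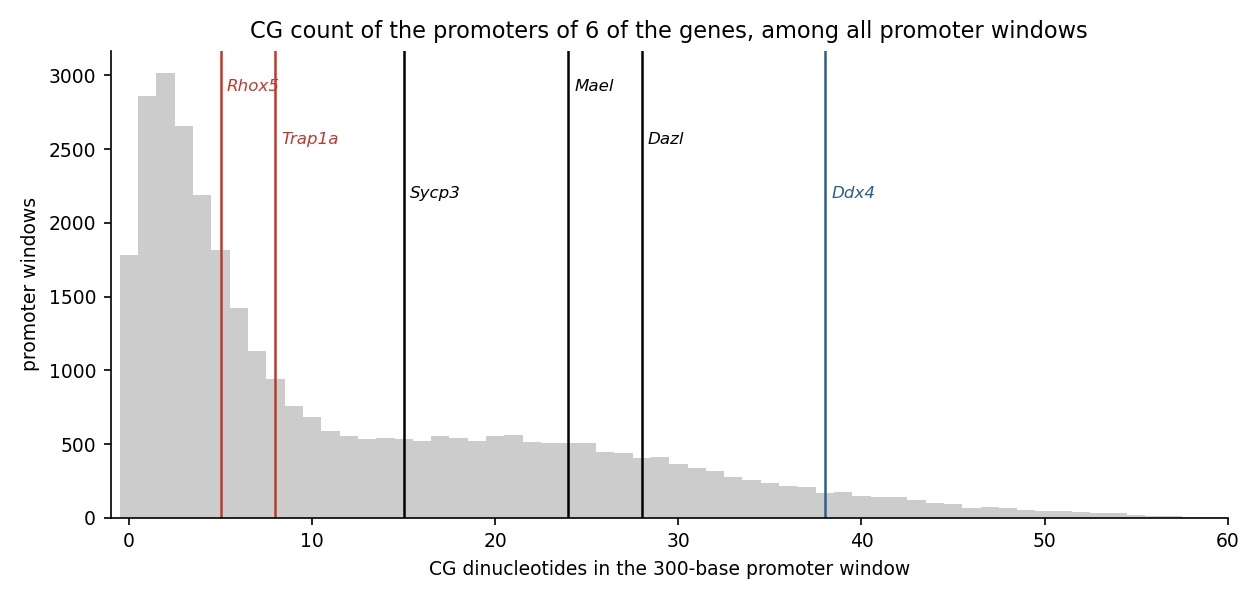
Histogram of all 32851 promoter windows of 300 bases by their number of CG dinucleotides (grey bars), with vertical lines at the count of each of the 6 genes that had a window. Rhox5 (5) and Trap1a (8), in red, lie near the median of 7, Sycp3 (15), Mael (24) and Dazl (28) lie in the upper part, and Ddx4 (38), in blue, lies near the upper end.

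Levels are the log2 values that the authors made by Robust Multiarray Analysis (RMA). A difference of 1 is 2-fold. Array medians over all probe sets were 6.28 to 6.33, and lower quartiles were 4.88 to 4.95. The table holds no detection calls, and a low level cannot be told from background. MEF replicate 1 stood apart from the other MEF arrays, with a Pearson r of 0.960 to 0.961 with them over all probe sets, where replicates 2 to 4 correlated at 0.997 with each other and P3 with P20 at 0.996. The cell types carried their own markers in part. All 10 fibroblast markers were lower in iHepSC than in MEF, where 13.4% of all genes were lower. Of 10 hepatocyte markers, 8 were higher, where 18.2% of all genes were higher. By the unpaired test of the study's methods, with p adjusted over all genes, these counts of markers were 8 and 7. The methods state no such adjustment, which is used here wherever that test is named. The falls were unequal. Vim differed by -0.52 and stayed at a mean of 14.08 in iHepSC, against 13.19 in pHep, and Fn1 stayed at 12.63 in iHepSC. The paper saw no Vimentin-positive iHepSC by immunostaining, which reads protein and not RNA. Serpina1b and Tat, which mature hepatocytes make, did not pass in iHepSC. Against pHep (1 array), 6 of the 10 hepatocyte markers were lower in iHepSC and 0 higher, where 7.89% of all genes were lower.

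Trap1a was high in iHepSC and low elsewhere. Its level was 13.83 at P3 and 13.86 at P20, 3.87 in pHep, and 4.24, 4.08, 4.06 and 4.11 on the MEF arrays. Both iHepSC arrays lay more than 9 log2 units above each other array, and the MEF arrays lay within 0.18 of each other. The mean difference between iHepSC and MEF was 9.72 log2 units, the second largest measured rise of the 18193 genes. The files hold no detection calls, and the levels in pHep and MEF may be background, so that no fold is given. The pHep level lay 0.26 below the MEF mean, a gap beyond the MEF range, but pHep was measured once and has no spread of its own. In RNA of whole cultures, a high level in all cells and a higher one in some of them cannot be told apart, nor can fewer cells of a type and less RNA per cell.

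Rhox5 showed the same order. Its level was 14.09 at P3 and 14.00 at P20, 5.64 in pHep, and 6.21, 6.31, 6.29 and 6.29 on the MEF arrays. The iHepSC arrays did not overlap with any other array, and the difference from MEF was 7.77, rank 21 of 18193. pHep lay 0.63 below the MEF mean, with the MEF arrays within 0.10 of each other. Without MEF replicate 1 the difference between iHepSC and MEF was 9.76 for Trap1a and 7.75 for Rhox5.

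The neighbours of Rhox5 inside the cluster did not share its level. Rhox6 was at 5.16 and 4.86 in iHepSC, 4.71 in pHep, and 4.78, 5.23, 4.79 and 4.79 in MEF. Rhox9 was at 6.17 and 6.52 in iHepSC, 6.24 in pHep, and 6.35, 6.35, 6.17 and 6.61 in MEF. For both genes the iHepSC and MEF arrays overlapped. Rhox6 averaged 5.01 ± 0.21 in iHepSC and 4.90 ± 0.22 in MEF, and Rhox9 averaged 6.35 ± 0.25 in iHepSC and 6.37 ± 0.18 in MEF (SD, n = 2 and 4). Rhox13, the other gene of the cluster with a probe set of its own, was at 3.81 and 3.78 in iHepSC, 3.57 in pHep and 3.76 to 3.90 in MEF. Its difference between iHepSC and MEF was -0.03 ± 0.09 (SE), with limma's adjusted p at 0.823. The 10 further Rhox genes looked for were not analysed here.

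Ddx4 ran the other way, being high in the fibroblasts. Its level was 3.34 at P3 and 3.33 at P20, 3.70 in pHep, and 7.06, 8.20, 8.36 and 8.30 on the MEF arrays. No iHepSC or pHep array came near a MEF array. The difference was -4.65 for iHepSC against MEF and -4.28 for pHep against MEF. Both comparisons use the same 4 MEF arrays. MEF replicate 1 was the low one among the MEF arrays, and without it the difference for iHepSC was -4.95. As a set, the fibroblast markers were also highest in MEF. The mean level of these markers per array was 6.94 to 7.06 in iHepSC, 9.10 in pHep and 12.35 to 13.25 in MEF. Among the MEF arrays this mean was highest on replicate 1, where Ddx4 was lowest. Single markers varied there, with Lum highest on replicate 1 (12.40 against 8.62 to 8.95) and Pdgfra lowest (10.71 against 11.55 to 11.75). The part of the fibroblast markers in the Ddx4 result was not tested.

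The germ cell genes that act beside Ddx4 were flat. Dazl was at 3.81 and 3.80 in iHepSC, 3.80 in pHep, and 3.97, 3.70, 3.74 and 3.61 in MEF by 1 of its probe sets, where the groups overlapped. By the other, which had the higher mean, it was at 4.53 and 4.53 in iHepSC, 4.24 in pHep, and 4.53, 4.86, 4.63 and 4.83 in MEF. Here the iHepSC arrays lay just under the lowest MEF array, by less than 0.01.

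Sycp3 was at 4.46 and 4.57 in iHepSC, 4.22 in pHep, and 3.93, 4.48, 4.62 and 4.48 in MEF. Mael was at 3.78 and 3.85 in iHepSC, 3.64 in pHep, and 3.78, 3.78, 3.73 and 3.78 in MEF. In both genes the iHepSC arrays overlapped the MEF arrays, and pHep was lower than both iHepSC arrays. Over the 6 probe sets other than those of Trap1a, Rhox5 and Ddx4, the differences between iHepSC and MEF ran between -0.18 and 0.14, and those between pHep and MEF between -0.47 and 0.05.

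**Figure D2:**
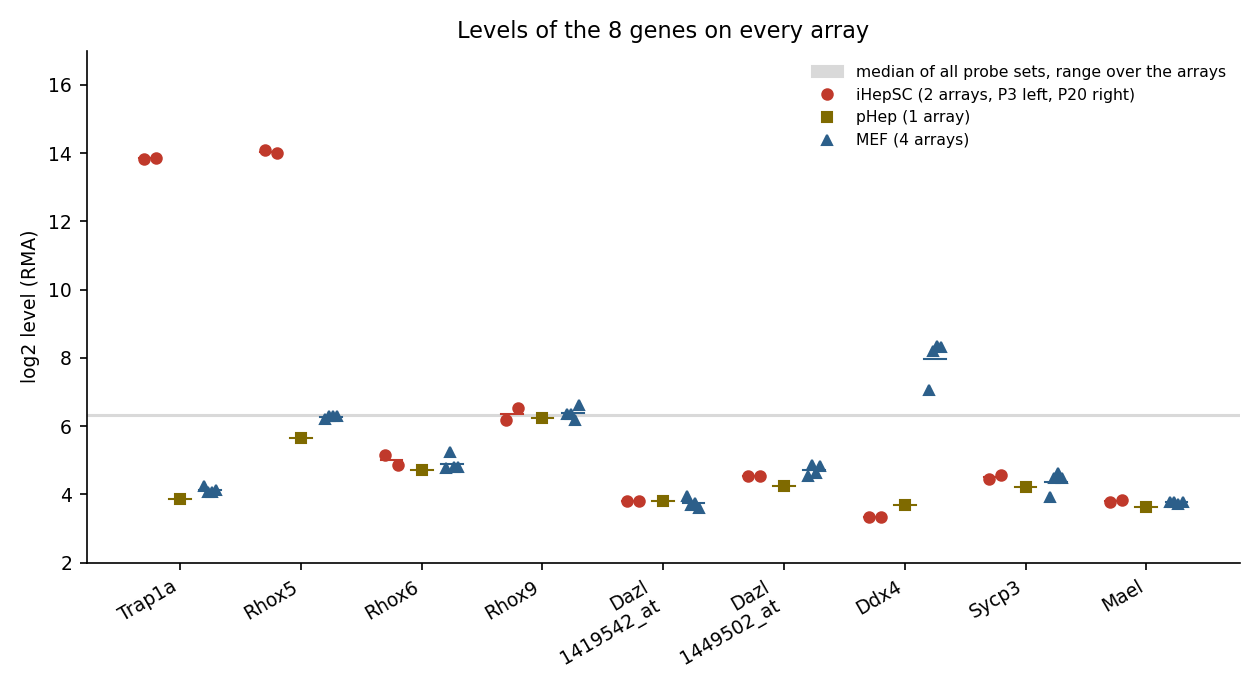
Log2 level (RMA, vertical axis) of the 9 probe sets of the 8 genes, with 1 point per array for iHepSC (red circles), pHep (brown square) and MEF (blue triangles), and short lines at group means. The grey band is the range of the array medians over all probe sets. Trap1a and Rhox5 stand near 14 in iHepSC only, Ddx4 stands above 7 in MEF only, and the other 6 probe sets overlap or nearly overlap between groups.

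Counted over the set, 2 of the 9 probe sets had both iHepSC arrays above all MEF arrays, which 23.1% of all probe sets also had, and 2 of 9 had both below, which 21.1% had. The set was chosen on this contrast and nothing is read from these counts. The level reached 6 on at least 1 array for 4 of the 8 genes, Trap1a, Rhox5, Rhox9 and Ddx4. Culture to P20 moved none of them much. The size of the difference between P20 and P3 had a median of 0.07 over the 9 probe sets and was at most 0.35, in Rhox9, against a median of 0.12 over all probe sets, of which 0.428% moved by at least 1. Each passage was measured on 1 array, so that these differences have no replicate.

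Genes whose levels ran most like those of Trap1a over the 7 arrays were sought among 3563 genes with a range of at least 2. The 5 with the highest Pearson r were Dmkn, 2210407C18Rik, Prap1, Serpinb6c and Dmbt1, with r between 0.9996 and 0.99997. For Rhox5 they were Aldh3a1, Dmbt1, Prap1, Tcf23 and Gkn2, with r between 0.9993 and 0.9997. The 2 iHepSC arrays lie apart from the other 5 for all these genes, and r then mostly measures that gap. At r of 0.99 or more stood 126 genes for Trap1a and 123 for Rhox5, and r between Trap1a and Rhox5 was 0.999. Dmbt1, a secreted scavenger receptor of mucosal epithelia, and Prap1 were on both lists. Dmbt1 had a mean of 13.94 in iHepSC, 4.00 in pHep and 4.50 in MEF. Prap1 had one of 11.81 in iHepSC, 5.43 in pHep and 5.73 in MEF.

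Whether other germline genes moved was asked of 104 genes in 5 lists, of which 71 were measured. The lists were chosen with earlier results of these data known. The p-values of their genes thus describe these arrays and are no independent support. The lists hold X-linked cancer-testis genes, genes of primordial germ cells and spermatogonia, genes of the meiotic chromosome axis and recombination, genes of the piRNA pathway and germ granule, and the remaining Rhox genes. In iHepSC against MEF, 6 of the 71 were higher and 4 lower past limma's adjusted p of 0.05, and 61 did not pass. Over all genes 18.2% were higher and 13.4% lower. Their median difference was -0.01, against 0.01 over all genes. A level of 6 was not reached on any iHepSC array by 48 of the 71, in pHep by 57 and on any MEF array by 47. Without MEF replicate 1 the counts were 9 higher and 10 lower, and without P3 or P20 the lower genes numbered 2 and 1.

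Mageb16, an X-linked gene of the MAGE family of tumour antigens, was the only cancer-testis gene of 11 measured to pass. Its level was 12.09 and 12.02 in iHepSC, 4.27 in pHep, and 4.33, 4.51, 4.26 and 4.47 in MEF. It thus was high on both iHepSC arrays and low on the other 5, as Trap1a and Rhox5 were. The difference was 7.66 ± 0.11 (SE) from MEF, with limma's adjusted p at 6.39e-07, and 7.78 ± 0.16 from pHep, with an adjusted p of 4.52e-06. Since the list was chosen with earlier results of these arrays known, these p-values are no independent support. As given above, 126 genes had an r of 0.99 or more with Trap1a. The promoter window of Mageb16 held 6 CG dinucleotides and neither motif. The other 10, among them Magea4, Magea5, Magea6, Mageb3, Usp26 and Nxf2, had differences between -0.38 and 0.21.

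In the meiotic list of 24, Hsf2bp, which brings BRCA2 to meiotic breaks, was higher in iHepSC. Its level was 9.98 and 9.98 in iHepSC, 6.38 in pHep and 5.10 to 5.79 in MEF, a difference of 4.49 ± 0.19 from MEF (limma's adjusted p, 1.75e-05). Its second probe set differed by 0.22. Tex15, needed for meiotic recombination and transposon silencing in male germ cells, was lower, at 5.73 and 5.30 in iHepSC, 4.94 in pHep and 6.88 to 7.98 in MEF. The difference was -1.80 ± 0.32 (adjusted p, 0.00721), though without P20 its adjusted p no longer passed. The meiotic cohesin subunit Stag3 was lower by a difference of -0.45 ± 0.11 (adjusted p, 0.0207), at levels under 5 on all arrays, and this turned to 0.038 with centring on Gapdh. The call on Stag3 was also lost without either iHepSC array, MEF replicate 3 or MEF replicate 4.

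Genes of primordial germ cells and spermatogonia that passed are also used by somatic cells. Kit, the receptor of stem cell factor, was at 8.43 and 7.54 in iHepSC, 4.22 in pHep and 4.21 to 4.50 in MEF, a difference of 3.69 ± 0.25 from MEF (limma's adjusted p, 0.000121). Its other probe set differed by 0.13, so that the rise was seen by 1 of 2 probe sets. Zbtb16 (PLZF), a transcription factor of spermatogonial stem cells, was at 9.01 and 9.84 in iHepSC, 11.58 in pHep and 6.12 to 6.46 in MEF. It was 3.08 ± 0.24 higher in iHepSC than in MEF (adjusted p, 0.000228) and differed by -2.16 ± 0.34 from pHep, where it was the higher.

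Prdm1 (Blimp1), which specifies primordial germ cells, was 1.56 ± 0.29 higher in iHepSC than in MEF (limma's adjusted p, 0.00826), a call that was lost without P20. Gfra1, the GDNF co-receptor of spermatogonial stem cells, was at 6.07 and 6.27 in iHepSC, 8.12 in pHep and 8.22 to 8.51 in MEF, a difference of -2.21 ± 0.12 (adjusted p, 5.26e-05). Its other 2 probe sets were lower in iHepSC as well. In the piRNA and germ granule list of 14, the tudor protein Tdrd7 was higher by 0.99 ± 0.20 (adjusted p, 0.0128) and the helicase Ddx25 lower, with a difference of -0.88 ± 0.17 (adjusted p, 0.00983). Both probe sets of Tdrd7 were higher in iHepSC. The call on Tdrd7 was lost without P3 and by the test of the study's methods, and that on Ddx25 was lost without either iHepSC array and with centring on Gapdh (-0.39).

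**Figure D3:**
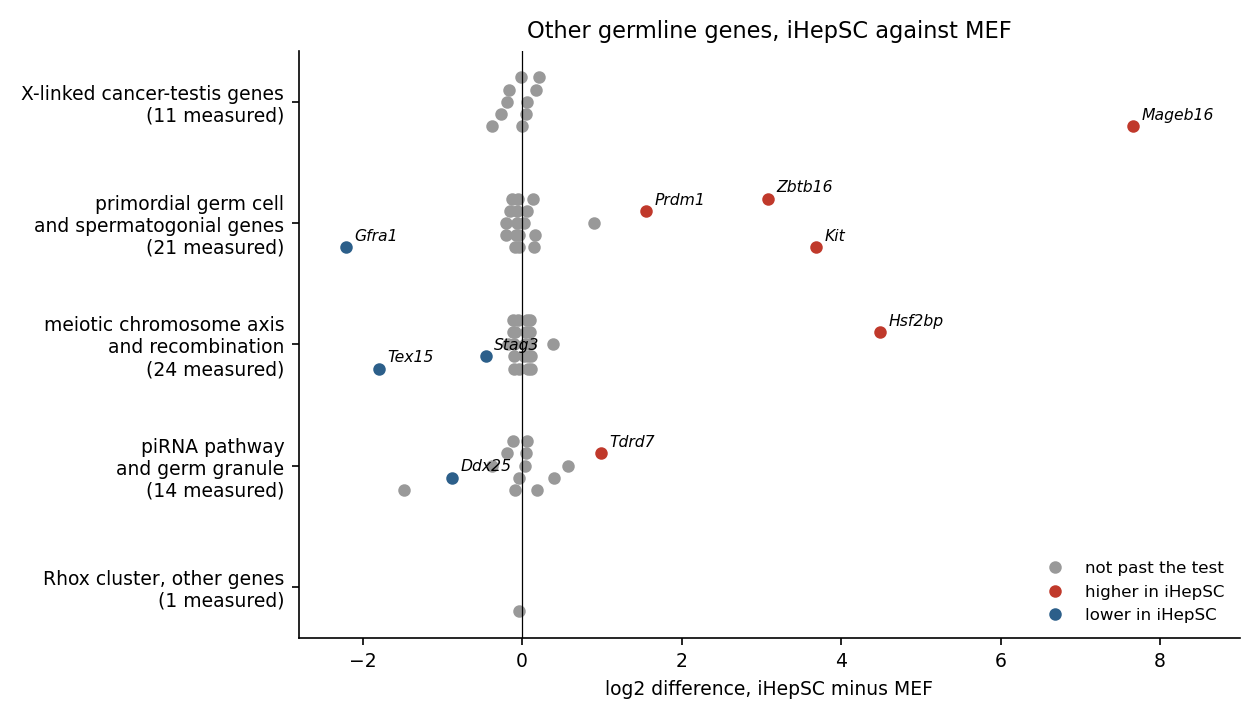
Log2 difference between iHepSC and MEF (horizontal axis) for the 71 other germline genes measured, 1 point per gene in its list, coloured by limma's test over all genes. Most points lie near 0. Mageb16 (7.66) lies far to the right, followed by Hsf2bp (4.49), Kit (3.69) and Zbtb16 (3.08), and Gfra1 (-2.21) lies farthest left.

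In pHep against MEF, 4 of the 71 were higher and 6 lower, where 14.8% of all genes were higher and 15.5% lower. Zbtb16 rose most (5.24 ± 0.31, limma's adjusted p, 9.57e-05), followed at small size by the meiotic genes Mei4 (0.94), Hsf2bp (0.89) and Meiob (0.68). Tex15 (-2.38), Tsga8 (-0.97), Ddx25 (-0.97), Sohlh1 (-0.66), Henmt1 (-0.55) and Dmrt1 (-0.47) were lower. Without MEF replicate 1, 20 were lower, and without any other single MEF or iHepSC array 1 or 2 were. Without MEF replicate 4, 2 were higher. The calls on Mei4, Hsf2bp, Tsga8, Ddx25, Sohlh1, Henmt1 and Dmrt1 were each lost without at least 1 of the other arrays. In iHepSC against pHep, 5 were higher and 2 lower, where 9.26% of all genes were higher and 7.89% lower. The 5 were Mageb16, Kit (3.77), Hsf2bp (3.60), Prdm1 (2.56) and Dmrt1 (0.63), and the 2 were Zbtb16 (-2.16) and Gfra1 (-1.95). The call on Gfra1 was lost when all its probe sets were averaged (-0.64), that on Prdm1 without P20, and that on Dmrt1 without any 1 of MEF replicates 2 to 4 or either iHepSC array. Without MEF replicate 1, 12 were higher and 4 lower. pHep was measured on 1 array, and these tests take its spread to be that of the other groups.

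Trap1a and the Rhox cluster lie far from each other on the X chromosome. The 10 nearest measured genes on each side of Trap1a and of the cluster, 40 in all, were tested in iHepSC against MEF. Of these 8 were higher, 5 lower and 27 not past the test, beside 18.2% of all genes higher and 13.4% lower, and their median difference was 0.01. On the whole X chromosome 16.0% of 617 genes were higher and 15.7% lower, against 18.4% and 13.4% on the autosomes. The count of 5 lower genes was 1 without P3, 0 without P20 and 1 or 2 without 1 of MEF replicates 2 to 4. With P20 left out, 5 genes were higher.

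Around Trap1a, 5 of 20 genes were higher and 2 lower. Cldn2, a claudin of tight junctions 3 places after Trap1a among the measured genes, was at 14.13 in iHepSC, 11.96 in pHep and 5.18 in MEF, a difference of 8.95 ± 0.17 (limma's adjusted p, 9.1e-07). Serpina7, the thyroxine-binding globulin of liver, was 4.45 ± 0.12 higher (adjusted p, 2.97e-06), with means of 7.72 in iHepSC, 11.95 in pHep and 3.27 in MEF. Rnf128, a ubiquitin ligase and the next gene after Trap1a, was 4.09 ± 0.57 higher (adjusted p, 0.00264), with means of 13.68 in iHepSC, 13.13 in pHep and 9.59 in MEF. In pHep the levels of these 3 genes also lay above their MEF means. The part of the neighbours in the level of Trap1a was not tested. Pwwp3b, the next gene before Trap1a, was lower with a difference of -1.81 ± 0.46 (adjusted p, 0.0267), a call that was lost without any of MEF replicates 2 to 4 or either iHepSC array.

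Around the Rhox cluster, 3 of 20 genes were higher and 3 lower. The nearest gene on each side, Gm9 and Atp1b4, did not pass, with differences of -0.15 and -0.12, which turned to 0.34 and 0.37 with centring on Gapdh. The largest fall was that of the glutamate receptor subunit Gria3 (-2.42 ± 0.66, limma's adjusted p, 0.0354), a call lost without any 1 of MEF replicates 2 to 4 or either iHepSC array, and no rise exceeded 0.82. Ranked over the X chromosome by the difference between iHepSC and MEF, the order of the largest rises was Trap1a, Cldn2, Rhox5 and Mageb16. Around the autosomal genes of the set, 7 of the 8 nearest neighbours passed (6 higher and 1 lower), where 18.2% of all genes were higher and 13.4% lower, namely Plcl2 (1.71) beside Dazl, Gnptab (1.39) and Chpt1 (2.61) beside Sycp3, Gpa33 (0.86) and Ildr2 (3.08) beside Mael, and Slc38a9 (0.79) and Il31ra (-0.46) beside Ddx4. These were named after their values were seen.

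**Figure D4:**
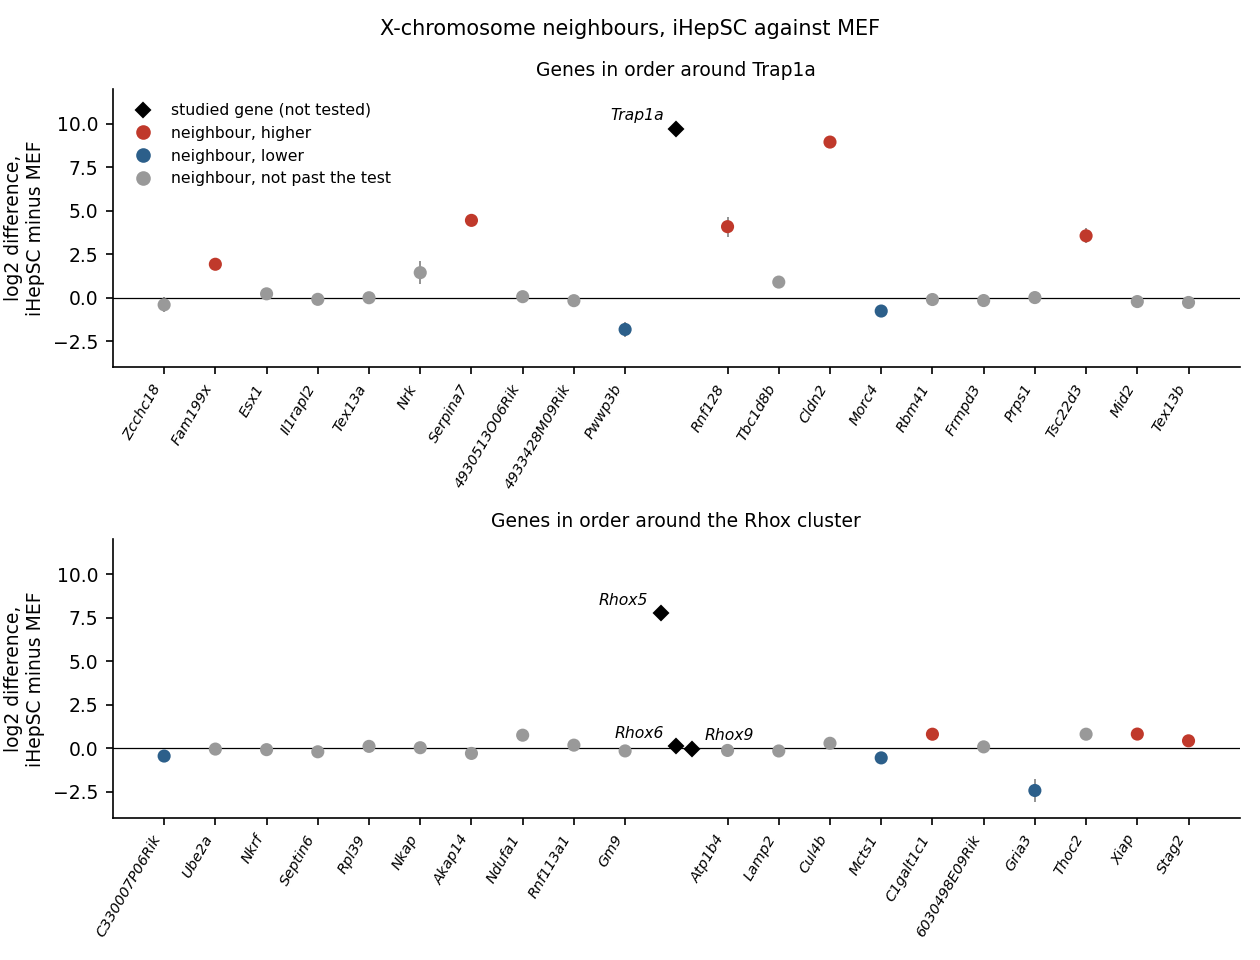
Log2 difference between iHepSC and MEF (vertical axis) for the 10 measured genes on each side of Trap1a (upper panel) and of the Rhox cluster (lower panel), in gene order and not to scale of distance. Bars are standard errors from limma, and black diamonds are the studied genes, which were not tested. Cldn2 (8.95), Serpina7 (4.45) and Rnf128 (4.09) rise near Trap1a (9.72), whereas no neighbour of Rhox5 (7.77) rises by more than 0.82.

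Transcripts of the sex chromosomes also differed between the groups. The paper took hepatocytes from male mice and gives no sex for the embryos that gave the fibroblasts. Xist, the RNA of the inactive X chromosome, was at 7.07 and 6.98 in iHepSC, 6.23 in pHep and 9.77 to 10.99 in MEF. The Y-linked gene Eif2s3y was at 4.23 and 4.12 in iHepSC, 10.37 in pHep and 9.72 to 10.10 in MEF, and Uty and Kdm5d were likewise lower on both iHepSC arrays than on all other arrays. Between iHepSC and MEF, their other probe sets differed by -1.95, -0.07 and -0.09 for Uty and by 0.015 and -0.20 for Kdm5d. The differences were -0.31 for Eif2s3y and -3.66 and -1.89 for Xist. By the probe sets read, all 4 genes were lower in iHepSC than in MEF, with differences between -5.80 and -3.22. The part of this in the levels of X-linked Trap1a, Rhox5 and Mageb16 was not tested.

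Enzymes that set or remove DNA methylation and complexes that repress germline genes were read from a list of 25, of which 24 were measured. In iHepSC against MEF, 2 were higher and 7 lower, beside 18.2% and 13.4% of all genes, with a median difference of -0.16 against 0.01 over all genes. The largest fall was in Max, which pairs with Mga on the CACGTG box in the PRC1.6 repressor, at 8.38 and 8.38 in iHepSC, 8.42 in pHep and 9.66 to 9.85 in MEF (-1.38 ± 0.10, limma's adjusted p, 0.000134). E2f6, the E2F subunit of that complex, was lower by a difference of -0.63 ± 0.09 (adjusted p, 0.00264) and its ubiquitin ligase Rnf2 by one of -0.60 ± 0.11 (adjusted p, 0.00779). A second probe set of E2f6 differed by 0.10, and the mean of its probe sets by -0.26, which did not pass. The call on Rnf2 was lost with the mean of its probe sets and without P3, and both calls were lost with centring on Gapdh. Max and E2f6 were also lower in pHep (1 array) than in MEF, with differences of -1.34 ± 0.12 and -1.11 ± 0.11. By its second probe set E2f6 was higher in pHep, at 7.18 against a mean of 6.28 in MEF. The part of these genes in the levels of Trap1a and Rhox5 was not tested. In iHepSC against MEF the subunit Pcgf6 was higher, by 1.09 ± 0.21 (adjusted p, 0.0101). So was Tet2, an enzyme that oxidises methylated cytosine, by 1.98 ± 0.52 (adjusted p, 0.0303). The call on Tet2 was lost without any 1 of MEF replicates 2 to 4, without either iHepSC array and by the test of the study's methods, and that on Pcgf6 without either iHepSC array and with the mean of its probe sets (0.66). The other 4 lower genes were Hdac1, Hdac2, Tet1 and Trim28.

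The DNA methyltransferases themselves did not pass the test. The difference between iHepSC and MEF was -0.36 ± 0.39 for Dnmt1, which copies methylation at replication, 0.71 ± 0.46 for Dnmt3a and 0.26 ± 0.23 for Dnmt3b, which set it anew, and -0.72 ± 0.75 for Uhrf1, the guide of Dnmt1. Uhrf1 was at 9.35 and 8.73 in iHepSC, 8.02 in pHep, 7.97 on MEF replicate 1 and 10.32 to 10.40 on MEF replicates 2 to 4. MEF replicate 1 also stood apart in Dnmt1 (9.18 against 10.41 to 10.50) and Dnmt3a (8.55 against 6.93 to 7.18). Both iHepSC arrays lay between it and the others, at 9.82 and 9.71 for Dnmt1 and 8.06 and 8.27 for Dnmt3a. Other probe sets differed by 0.09 and -0.22 for Dnmt1, -0.68 to 0.74 for Dnmt3a, -0.67 for Dnmt3b and -1.23 for Uhrf1. These were not tested on their own, and the lack of a call is not read as no change. Without MEF replicate 1, 5 of the list were higher and 10 lower. Without P3 the list had 0 higher and 3 lower, and without P20 it had 0 higher and 4 lower. Centred on Gapdh, 4 of the list were higher and 1 lower.

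Trap1a and the Rhox genes are also genes of placenta, pluripotent cells and Sertoli cells, and markers of these cells were read. Beside 18.2% of all genes higher and 13.4% lower, 1 of 14 placenta and trophoblast markers passed, the cathepsin Ctsq (0.45 ± 0.10, limma's adjusted p, 0.0181), at levels of 5.53 and 5.35 in iHepSC, 5.15 in pHep and 4.93 to 5.08 in MEF, and that call was lost without P3 or without any 1 of MEF replicates 2 to 4. None was lower, by limma, at an unadjusted p under 0.05 or by the test of the study's methods (unpaired, equal variances, here adjusted over all genes). The mean level per array was 5.22 to 5.28 in iHepSC, 5.05 in pHep and 5.19 to 5.31 in MEF. None of 8 Sertoli markers passed by limma or by that test, and 1 was higher at an unadjusted p under 0.05.

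Of 10 pluripotency markers, 1 was higher and 1 lower. Klf4 was higher (1.34 ± 0.10, limma's adjusted p, 0.000214) and Nanog lower (-0.53 ± 0.10, adjusted p, 0.0108). Nanog had levels under 5 on all arrays, and its call was lost without P20 or P3 and with centring on Gapdh (-0.038). Pou5f1 (Oct4), the factor given by virus, was at 5.04 and 5.20 in iHepSC, 5.05 in pHep and 4.99 to 5.26 in MEF. Of all markers measured for these 3 cell types, those higher in iHepSC than in MEF were Ctsq and Klf4.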

How the data were processed

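The authors normalized 7 Affymetrix mouse arrays by RMA and deposited log2 values of 45101 probe sets. The software version and genome build are not given in the sources used here, and arrays give no read depth, so that precision rests on the number of arrays alone. Names of probe sets were those given by GEO's annotation of the array. The 64 control probe sets, 932 with several symbols and 9211 with none were left out, and where a gene had several, the one with the highest mean stood for it, which gave 18193 genes.

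Tests used limma 3.58.1 under R 4.3.3 (1 model with a mean per group, eBayes, Benjamini-Hochberg over all genes, threshold 0.05). The model had 4 residual degrees of freedom, to which pHep adds none, and was tested on simulated data. The 8 genes and all lists were chosen with earlier results of these data known. In each list up to 3 of the largest rises and falls past the test were named. Hdac1, Hdac2, Tet1, Trim28, the DNA methyltransferases, Uhrf1 and Pou5f1 were named after their values were seen. So were Vim, Fn1, the Serpina1b and Tat pair, cancer-testis genes not past the test and the neighbours of autosomal genes. Gene order and promoters came from RefSeq (GRCm38.p6). The alternatives were the mean of all probe sets, leaving out _x_at and _s_at probe sets, a filter at 6, quantile normalization again, robust fitting with a trend, centring on Gapdh or on the array median, leaving out each array, the replicate number as a block, and the methods' test (unpaired, equal variances). The methods' test was adjusted here by Benjamini-Hochberg over all genes, which the study does not state. Tables were made with Python 3.11.15, pandas 2.3.3, numpy 2.4.6 and matplotlib 3.10.9.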

Additional observations from a re-analysis of the deposited data

Results flagged for a closer look

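In a group of 4 arrays, 1 MEF array was held to lie far from the others when its gap to the nearest, divided by the range, was above Dixon's limit for 4 arrays, which chance alone passes in about 1 of 20 groups. Of 45 items, the 9 probe sets and the named genes, 8 had such an array, which was MEF replicate 1 in 6 of them. That array stood apart over all probe sets as well. The share of all probe sets with a far array was not counted, so that nothing particular to these genes is read from the 8. Ddx4 was low on MEF replicate 1 (7.06 against 8.20 to 8.36, ratio 0.877). Rhox6 was high on MEF replicate 2 (5.23 against 4.78 to 4.79, ratio 0.976). Mael was lower on MEF replicate 3 (3.73 against 3.78 on each of the others, ratio 1.0), a gap of 0.05. MEF replicate 1 was also the far array for 5 named genes. It was high for Kit (ratio 0.873), Prdm1 (0.945), Rnf128 (0.878) and Gria3 (0.883), and low for Pwwp3b (0.92). In Prdm1 it stood at 6.49 against 5.60 to 5.65, and in Rnf128 at 10.97 against 8.99 to 9.24.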

How the results depend on the processing

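Trap1a kept a difference between iHepSC and MEF of 9.70 to 10.21 under every alternative run, Rhox5 one of 7.72 to 8.26 and Ddx4 one of -4.95 to -4.16, whereas the other 6 probe sets stayed between -0.24 and 0.63. Centring on Gapdh moved the median of all genes to 0.50, against 0.01, and the split of all genes to 4557 higher and 1053 lower, against 3310 and 2446. With it 6 of the 9 probe sets had both iHepSC arrays above all MEF arrays and 1 below. The share of all probe sets was not counted under this or the other alternatives, and nothing is read from such counts. With quantile normalization again or median centring 1 was below, since 1 Dazl probe set missed MEF replicate 1 by under 0.01. Gapdh centring turned the sign of Stag3 (0.038), Rhox13 (0.46), Gm9 (0.34) and Atp1b4 (0.37).

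Gapdh centring gave 2 other germline genes lower in iHepSC against MEF, 1 higher and 2 lower in pHep against MEF, 1 X neighbour lower, and 4 genes of the methylation and repressor list higher and 1 lower. Quantile normalization again gave 3 germline genes lower in pHep against MEF. The mean of all probe sets gave 1 gene of that list higher and 1 placental marker lower, the filter at 6 gave 0 placental markers higher, and the methods' test gave 3 X neighbours lower and 1 gene of that list higher. The remaining counts under these settings stayed near those in the report.

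Leaving out each array in turn, germline genes were 5 to 9 higher and 1 to 10 lower (iHepSC against MEF), 2 to 6 higher and 1 to 20 lower (pHep against MEF), and 3 to 12 higher and 2 to 4 lower (iHepSC against pHep). X neighbours were 5 to 12 higher and 0 to 7 lower, methylation and repressor genes 0 to 5 higher and 3 to 10 lower, and placental markers 0 to 1 in each direction. Probe sets of the 8 genes numbered 2 to 3 above and 2 below all MEF arrays, where the share of all probe sets was not counted. The largest counts came without MEF replicate 1, where 5638 of all genes were higher and 4514 lower.

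The replicate number of iHepSC is the passage, and nothing in the labels pairs it with MEF. The r of deviations from the group means was -0.22 for number 1 and -0.19 for number 2. With 2 iHepSC arrays the deviations mirror each other, so that r cannot show pairing or its lack. With the number as a block, germline genes were 4 higher and 2 lower, then 1 and 1 (pHep against MEF), and 3 and 0 (iHepSC against pHep). Under the block X neighbours were 2 higher and 0 lower, methylation and repressor genes 0 and 1, and placental markers 0 and 0, with 845 higher and 682 lower over all genes. Of 44 named results past the test, 17 passed under every alternative run. These were Mageb16, Kit and Hsf2bp in iHepSC against either other group, Gfra1, Max, Klf4, Cldn2, Serpina7, Eif2s3y, Kdm5d and Uty in iHepSC against MEF, Zbtb16 in iHepSC and in pHep against MEF, and Tex15 in pHep against MEF.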
